A study of Homo sapiens with 9 samples.

Results

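The transcriptome of mock HEK293 cells is described here as levels, from the 3 arrays titled as lacking cumate among the 9 arrays of the series. HEK293 is an established human cell line made from embryonic kidney by transformation with adenovirus DNA. Its cells divide rapidly, are a common host for introduced receptors, and are known for a mixed character in which epithelial, kidney and neuronal features occur together. The labels call the mock cells naive in genotype and describe them as a mock control. They do not say whether these cells carry an empty construct, nor whether each biological replicate was a separate culture, so an SD here measures only the spread between arrays. The other arrays held cells labelled as overexpressing GPR39, a zinc-sensing G protein-coupled receptor. Of these, 3 had 0.03 mg/mL cumate, a small molecule that switches on engineered genes, and 3 had 1 uM of the GPR39 agonist TC-G-1008, where the labels do not say whether cumate was present too. All were single-colour Affymetrix arrays.

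Each level is given as a percentile, the place of a probe set among the 53617 probe sets of its own array, with the dimmest near 0 and the brightest near 100. Probe sets differ in how strongly they hybridise, so a difference in percentile between genes is not a difference in transcript number. The base of the ranking matters as well: ranked among named probe sets only, the median percentile of named genes was 51.1 in place of 68.4, the median shift was -13.9, and 603 of the 611 percentiles of listed genes moved by more than their SD between arrays. A reference range was taken from 108 genes of skin-appendage and sensory receptor families: 85 keratin-associated protein genes, 17 late cornified envelope genes, 5 vomeronasal receptor genes and 1 olfactory receptor gene. Their median percentile was 28.8, and 95% of them lay at or below percentiles 73.4, 72.7 and 73.5 on mock replicates 1, 2 and 3. These limits were log2 signals of 5.02, 5.03 and 5.13. A gene is called above the reference range when it exceeded the limit on all 3 arrays. Of 14884 named genes, 6145 did so (41.3%), 658 did so on 1 or 2 arrays and 8081 on none, and the median percentile of named genes was 68.4. A gene below the limit is not shown to be silent: CFL1, an actin regulator, lay at 54.3, GNAS, a G protein subunit, at 70.8, and TPI1, a glycolytic enzyme, at 66.7, although nearly all cells use them. Conversely, KRTAP5-7, a hair keratin-associated gene of the reference set, lay at 89.6, 89.4 and 89.6.

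**Figure D1:**
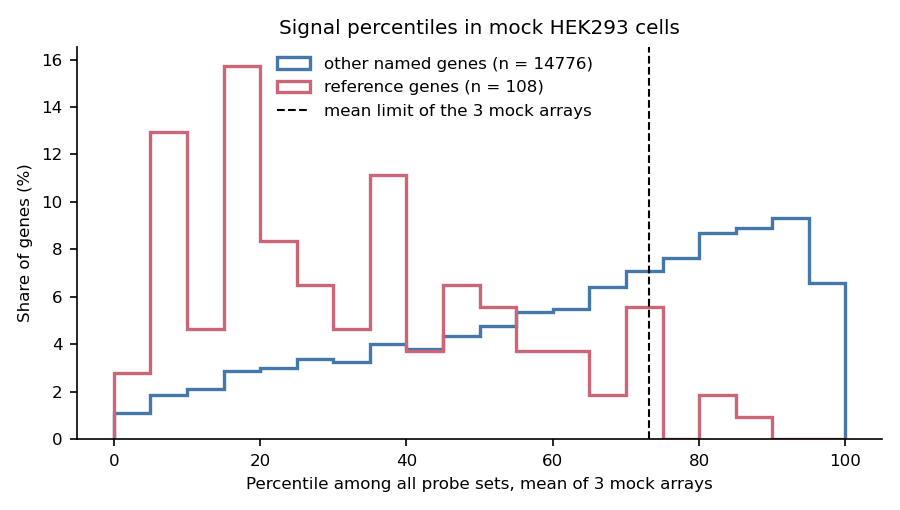
Share of genes (%) in bands of 5 percentile points, against the percentile averaged over the 3 mock arrays, for the 108 reference genes (red) and all other named genes (blue). The dashed line is the mean limit. Most reference genes lie to its left, around their median of 28.8, and named genes as a whole have their median at 68.4.

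Mock replicate 1 stood apart. Over all probe sets its mean correlation was 0.985 with the other mock arrays and 0.988 with the arrays of the cumate group. Replicates 2 and 3 correlated more with the other mock arrays (0.988 and 0.987) than with the cumate group (0.985 and 0.982). Of the 6145 genes above the range, 1 read at least 1 log2 unit higher and 5 at least 1 unit lower on replicate 1 than on the mean of the other mock arrays. The same counts were 0 and 0 for replicate 2, and 1 and 0 for replicate 3. What sets replicate 1 apart was not tested. Without it 6207 genes were above the range, with 39 lineage, 57 receptor, 129 signalling and 100 housekeeping genes, against 39, 57, 128 and 98 with it.

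Genes of early kidney development were partly above the range. In the embryo, EYA, SALL, LHX and HOX factors help to specify the cells from which nephrons form. Of the named genes of this list, 5 of 13 were above the range (38.5%), with a median percentile of 69.0. The share was 41.3% of all named genes and 49.0% of protein-coding genes. EYA1, a coactivator in nephron progenitors, lay at 92.7, 91.8 and 92.3 on replicates 1, 2 and 3. HOXD11, a homeobox gene of kidney and limb patterning, lay at 90.2, 90.3 and 91.6. SALL1, a zinc finger repressor of the nephrogenic mesenchyme, lay at 85.6, 85.9 and 86.4. On every array these genes were well clear of the limit. JAG1, a Notch ligand, and LHX1, a LIM homeobox gene, were the other members above it. EMX2 lay at 76.6, 73.4 and 72.7, above the limit on replicates 1 and 2 and below it on replicate 3. PAX2 and PAX8, kidney transcription factors often used as renal markers, lay below it at 62.0 ± 4.69 and 43.8 ± 4.44 (SD, n = 3, here and throughout), as did RET, the receptor of the ureteric bud, at 49.8 ± 1.11. In such bulk RNA a low level can come from few cells with the transcript or from little of it in each, and these cannot be told apart.

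Markers of the mature nephron were mostly below the range, although the labelled tissue is kidney. Of the podocyte genes, 1 of 6 was above it: CD2AP, a slit diaphragm adaptor that many cells also use, at 97.4, 97.5 and 97.5. PODXL, the podocyte sialomucin, passed the limit on 2 arrays, the filament gene NES lay at 68.3 ± 2.02, and TCF21 and CLIC5 lay at 37.8 ± 3.14 and 35.6 ± 4.36. Counts were 0 of 5 for the proximal tubule and 0 of 4 for the loop of Henle and distal tubule. LRP2, the endocytic receptor megalin, lay at 68.0, 73.2 and 71.3, so that only replicate 2 passed its limit. Members of the loop and distal list were EGF at 62.8, the claudins CLDN19 and CLDN16 at 59.4 and 22.8, and PVALB at 37.7 ± 12.3. CUBN, the partner of LRP2, lay at 32.1 ± 0.93, the brush border peptidase genes MME and ANPEP at 64.4 ± 1.72 and 52.98 ± 0.79, and the water channel AQP1 at 57.2 ± 0.17. GATA3, a transcription factor of the ureteric bud and collecting duct, was the 1 collecting duct gene of 8 above the range, at 83.7 ± 0.72, while the water channels AQP2, AQP3 and AQP4 lay at 62.0, 50.2 and 30.4 and the factor TFAP2B at 31.3. Only 5 of the 18 listed proximal tubule genes have a named probe set, and the others were not analysed. A probe set annotated with several gene symbols was not counted as named, so a gene left out may still have one. Over all lists 611 of 1183 genes have a named probe set, with 160 of 280 lineage and 107 of 258 housekeeping genes. Counts of members here and below cover these named genes only. Markers left out in this way include TUBB3 of the neuronal, CDH1 of the epithelial and CDH2 of the mesenchymal list.

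Steroid and catecholamine genes were nearly all below the range. Of the adrenal cortex genes 1 of 4 was above it, FDX1, a mitochondrial ferredoxin that many tissues make, at 94.2, 94.0 and 94.1. STAR, which brings cholesterol into mitochondria for steroid synthesis, lay at 43.5 ± 2.96, and the ACTH receptor gene MC2R and its partner MRAP at 41.0 ± 1.41 and 44.8 ± 1.57. The chromaffin and sympathetic list had 0 of 11. INSM1, a neuroendocrine zinc finger gene, lay at 76.4, 74.0 and 71.8, above the limit on replicates 1 and 2 and below it on replicate 3. The transcription factor GATA2 lay at 68.9 ± 0.06. TH, the rate-limiting enzyme of catecholamine synthesis, lay at 66.3 ± 1.06, and the granule protein genes CHGB and SCG2 at 39.0 ± 1.94 and 17.7 ± 5.46.

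Of neuronal genes 5 of 14 were above the range (35.7%), with a median of 67.2. All named genes had 41.3% and 68.4, and protein-coding genes 49.0% and 74.0. UCHL1, an abundant neuronal deubiquitinase, lay at 95.04, 95.4 and 94.7, and NCAM1, a neural adhesion molecule, at 88.3, 88.6 and 88.6. DPYSL3, a regulator of axon growth, CNTN1, an axonal adhesion molecule, and MAP2, a dendritic microtubule protein, were the others above it, at 83.4, 80.0 and 76.5. DCX, of migrating neurons, lay at 24.3 ± 2.54 and SYT1, of synaptic vesicles, at 37.1 ± 0.61. STMN2, a neuronal microtubule regulator, differed between arrays, at 44.8, 32.1 and 30.8, with replicate 1 the high array. Of the glial and neural stem genes 3 of 12 were above the range: PAX3, of the neural crest, at 85.1 ± 0.26, and the neural progenitor genes SOX2 and MSI1 at 83.3 ± 1.39 and 83.3 ± 0.64. The astrocyte genes GFAP and S100B lay at 59.1 ± 4.17 and 23.5 ± 8.31.

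The epithelial list had 10 of 16 members above the range (62.5%, against 41.3% of all named genes and 49.0% of protein-coding genes) and a median of 83.2. DSP, of desmosomes, lay at 96.5, 96.7 and 96.8, TJP1, of tight junctions, at 96.2, 96.3 and 96.5, and OCLN, a tight junction membrane protein, at 95.2, 95.1 and 95.3. EPCAM, an epithelial adhesion molecule, lay at 94.9, 95.3 and 94.8. KRT18, a keratin of simple epithelia, lay at 93.4 ± 0.42, with its other probe set at 78.9, and its partner KRT8 lay below the range at 69.8 ± 1.27. KRT5 and KRT7, keratins of basal and ductal epithelia, lay at 20.2 ± 5.70 and 28.4 ± 7.84. The mesenchymal list had 4 of 11 above the range (36.4%), against the same 41.3% and 49.0%. FN1, fibronectin, lay at 90.1, 91.8 and 92.4, VIM, the mesenchymal intermediate filament vimentin, at 91.7, 91.6 and 90.7, and SNAI2, a repressor of epithelial genes, at 85.4 ± 1.29. The fibroblast matrix genes DCN and LUM lay at 9.04 ± 0.71 and 21.3 ± 0.65, under the reference median of 28.8. Epithelial junction genes and vimentin were thus above the range on the same arrays, which in bulk RNA does not show that they were in the same cells.

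Lists of unrelated lineages had few members above the range. Among pluripotency and germ cell genes these were 3 of 15. LIN28B, which blocks let-7 microRNA processing, lay at 97.0, 96.8 and 96.9. DNMT3B, a de novo DNA methyltransferase, lay at 75.2 ± 1.44, and SOX2 is in this list too. NANOG, a defining pluripotency factor, lay at 11.3, 4.68 and 4.85, and DDX4, of germ cells, at 11.1 ± 5.65. The endothelial list had 1 of 9, the VEGF receptor gene FLT1 at 78.8 ± 0.72, while the junction genes CLDN5 and ESAM lay at 63.7 and 58.5, and PECAM1 and EMCN at 14.5 ± 7.90 and 8.85 ± 2.89. Of leukocyte genes 2 of 9 were above the range: LCP1, an actin-bundling protein, at 97.1, 97.1 and 97.1, and CD68, a lysosomal protein, at 86.7 ± 1.66. CD8A, of T cells, lay at 67.9 ± 1.54. The myeloid genes CD14 and TYROBP lay at 42.4 ± 1.69 and 43.9 ± 6.11.

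Hepatocyte and gut genes had 3 of 15 above the range: GATA6 and FOXA2, transcription factors of endoderm, at 94.0 ± 0.32 and 78.9 ± 0.91, and LGR5, an R-spondin receptor of stem cells, at 80.5, 85.0 and 82.3. The liver secretory genes AFP and APOB lay at 23.5 ± 5.28 and 28.4 ± 9.28. Of muscle genes 1 of 8 was above it, the sarcomere gene TTN at 76.3, 77.6 and 83.1; its other probe set lay at 38.9, and averaging both left no muscle gene above. The muscle filament DES passed the limit on 2 arrays, and NKX2-5, MB and TNNI3, of heart and muscle, lay at 69.8, 33.9 and 30.8. The cancer-testis antigens had 0 of 2, with PRAME at 45.3 ± 2.76 and SYCP1 at 8.99 ± 3.63. Over the 17 lineage lists 39 of 160 named genes were above the range (24.4%), with a median of 59.3. All named genes had 41.3% and 68.4, and protein-coding genes 49.0% and 74.0. Without replicate 3 the lineage count became 43. The podocyte, chromaffin and muscle lists each gained 1 member, giving 2, 1 and 2, and the early kidney list gained EMX2.

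**Figure D2:**
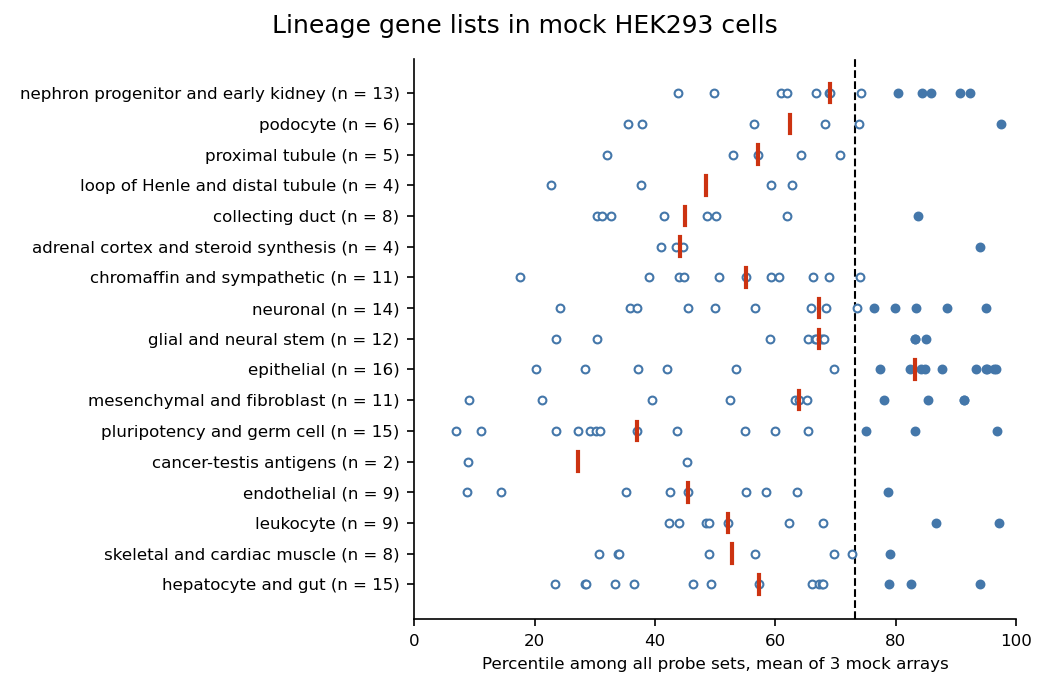
Percentile averaged over the 3 mock arrays (horizontal axis) for each named member of the 17 lineage lists; filled points were above the reference range on all 3 arrays and open points were not. Red bars are list medians and the dashed line is the mean limit. The epithelial list has its median at 83.2 with 10 of 16 points filled, and the proximal tubule and chromaffin lists have none filled.

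Receptors at the surface decide which hormones and transmitters a host cell can answer. G protein-coupled receptors act through heterotrimeric G proteins, and receptor tyrosine kinases phosphorylate themselves when a growth factor binds. GPR39 lay at 34.8, 37.8 and 34.1, with log2 signals of 2.43, 2.55 and 2.43 on replicates 1, 2 and 3. All 3 values were far below the limit. The sources used here do not say where in the transcript its 1 probe set lies. Its relatives of the ghrelin and neurotensin receptor family were below the range as well, with the ghrelin receptor GHSR at 30.3 ± 2.96, NTSR1 at 52.9 ± 3.46 and NMUR2 at 13.1 ± 6.74.

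Over the 9 receptor lists 57 of 156 named genes were above the range (36.5%), with a median of 67.3. The share was 41.3% of all named genes and 49.0% of protein-coding genes, and every receptor count below stands beside these shares. Of the class A receptors that were listed as described in HEK293 cells, 6 of 25 were above the range (24.0%), with a median of 63.4. CXCR4, a chemokine receptor, lay at 90.04, 88.4 and 89.2. ADORA2B, an adenosine receptor that raises cAMP, lay at 88.5, 89.0 and 86.0, and F2R, the thrombin receptor, at 86.9, 86.5 and 86.5. The remaining 3 bind lysophospholipids: LPAR3 at 79.3 ± 0.93, LPAR1 at 79.0 ± 0.45 and S1PR2 at 77.5 ± 2.59. The other probe set of LPAR1 lay at 67.0, and averaging both ended its call. NPY1R, for neuropeptide Y, and EDNRB, for endothelin, lay at 30.8 ± 4.73 and 30.6 ± 6.10. Of the orphan and ghrelin-family receptors 4 of 20 were above it: GPR180, GPR37, GPR137 and GPR27, at 89.0, 87.3, 82.4 and 76.9. GPR3, which raises cAMP without an added ligand, lay at 79.9, 74.5 and 72.3 and passed the limit on replicates 1 and 2, and GPR85 lay at 26.1 ± 0.35.

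In the class B, C and frizzled list 9 of 20 were above the range, and every one was a frizzled receptor for Wnt ligands or an LGR receptor for R-spondins, which strengthen Wnt signals. FZD6 lay at 95.1, 95.6 and 94.9, FZD3 at 92.5, 93.2 and 92.7 and LGR4 at 89.2, 88.7 and 87.5. All 3 were well clear of the limit on every array. SCTR, for secretin, and CALCRL, for calcitonin-related peptides, lay at 39.3 ± 1.71 and 13.2 ± 2.12.

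Receptor tyrosine kinases had 17 of 30 above the range (56.7%, against 41.3% of all named genes and 49.0% of protein-coding genes), with a median of 79.6. EPHA7, an ephrin receptor of the developing nervous system, lay at 97.7, 98.0 and 98.0. MET, for hepatocyte growth factor, lay at 92.6, 92.9 and 93.8, and RYK, a Wnt co-receptor, at 90.5, 90.3 and 90.8. IGF1R, for insulin-like growth factor, lay at 87.8, 90.5 and 90.6, a log2 range of 0.49, with replicate 1 the low array. DDR2, a collagen receptor, lay at 43.4 ± 4.26. Cytokine receptors had 6 of 13 above the range (46.2%), led by LIFR at 93.3 ± 0.23, IL17RA at 88.4 ± 0.86 and OSMR at 86.2 ± 0.93. The prolactin receptor PRLR and the ectodysplasin receptor EDAR lay at 9.62 ± 1.30 and 42.8 ± 6.61.

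Innate immune genes were divided, also within a role. Members above the range were 6 of 24: the RNA sensor RIGI at 87.6 ± 0.28, the kinases TBK1 and IRAK1 at 86.6 ± 0.70 and 85.5 ± 1.48, the adaptors MAVS and STING1 at 85.0 ± 1.18 and 76.1 ± 2.02, and the transcription factor IRF3 at 78.6 ± 2.19. None of the Toll-like receptor genes TLR1 to TLR10 was above it. They ran from TLR8 at 10.0 ± 0.23 to TLR5 at 53.5 ± 4.25, with TLR4, the endotoxin receptor, at 35.2 ± 0.77. The DNA sensors CGAS, upstream of STING1, and AIM2 lay at 45.4 ± 3.04 and 24.7 ± 3.22. Also below the range were the RNA sensor IFIH1 at 56.6 ± 1.70 and the transcription factor IRF7 at 49.4 ± 0.69. The adaptors MYD88 and TICAM1 were below it too, at 69.65 ± 2.01 and 69.2 ± 2.32.

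Of the nuclear receptors 2 of 10 were above the range, the fatty acid sensor PPARD at 85.9 ± 0.74 and the metabolic regulator ESRRA at 75.9 ± 1.97. The fat cell regulator PPARG lay at 66.9 ± 1.10, the estrogen receptor ESR1 at 43.7 ± 0.57 and ESRRG at 37.8 ± 2.35. Named ion channel genes had 3 of 7 above it: ANO6, a lipid scramblase and channel, at 98.4 ± 0.11, and the mechanosensitive channels PIEZO1 and PIEZO2 at 86.2 ± 0.65 and 83.2 ± 2.04. The store-operated calcium entry genes ORAI1, ORAI2 and STIM1 each passed the limit on 2 arrays, and without replicate 3 the count became 6 of 7. The acid-sensing channel ASIC1 lay at 68.9 ± 1.19.

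Zinc is a ligand of GPR39, and metallothioneins bind zinc inside the cell under the control of MTF1. Of this group 4 of 9 named genes were above the range. MT1X lay at 96.4, 95.8 and 95.5, MTF1 at 94.5, 94.1 and 94.6, and MT2A and MT1F at 86.8 ± 1.32 and 81.7 ± 1.16. MT1H lay at 48.0, 5.89 and 9.50, with replicate 1 far above the others, and MT1M lay at 9.70 ± 4.37. Metallothionein genes are near-identical in sequence, so their probe sets may share signal and these levels are uncertain. No zinc transporter of the list has a named probe set.

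The signalling lists also hold some surface receptors and secreted ligands, such as those of the Wnt, Notch and BMP pathways. They had 128 of 194 named members above the range (66.0%), against 41.3% of all named genes and 49.0% of protein-coding genes. Of the heterotrimeric G protein subunits only GNA12, at 76.6 ± 0.79, and GNAS, at 70.8 ± 0.61, have a named probe set. GNAS read the same log2 signal, 4.82, on all 3 arrays, so its SD comes only from shifts of other probe sets. G protein regulators had 6 of 23 above the range, led by GRK6, a receptor kinase, at 93.0 ± 0.55, GPSM2, a binder of inhibitory G proteins, at 87.6 ± 0.73, and RGS16, which shortens G protein signals, at 83.2 ± 0.77. RGS1 and RGS7, of the same family, lay low, RGS1 at 8.20, 8.63 and 4.05 and RGS7 at 27.1 ± 4.03. In the cAMP pathway 12 of 17 were above it, with the coactivators CREBBP and EP300 at 96.7 ± 0.40 and 95.3 ± 0.77 and the kinase anchor AKAP12 at 93.0 ± 0.49. Adenylyl cyclases were split: ADCY1, ADCY3, ADCY6 and ADCY9 were above the range, and ADCY2, ADCY5 and ADCY7 were not, with ADCY2 at 31.5 ± 4.26. RAPGEF3, a cAMP-activated exchange factor, lay at 46.4 ± 1.62. The phospholipase C and calcium list had 2 of 4 named members above it, CAMK4 at 83.7 ± 1.17 and CAMK2G at 78.4 ± 1.80, with CAMK2D passing the limit on 2 arrays and CAMK2A at 48.4 ± 3.61. The other probe set of CAMK2G lay at 65.4 and that of ADCY6 at 60.3; averaging each pair ended both calls, leaving 1 of 4 in this list.

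Among further signalling genes, RHOA, the GTPase of stress fibres, lay at 98.6, 98.5 and 98.5, MOB1A, of the Hippo pathway, at 96.6 ± 0.13, and ARHGEF12, an activator of RHOA, at 95.9 ± 0.26. STK3, a Hippo kinase, lay at 52.1 ± 0.68. RAS and MAP kinase genes had 14 of 21 above the range. MAP3K7, of the TAK1 kinase, lay at 96.9, 96.9 and 96.9, MAP2K1 at 95.5 ± 0.21 and NF1, which switches RAS off, at 94.7 ± 0.58. MAPK10, the neural JNK, and MAPK11, a p38 kinase, lay at 32.5 ± 2.57 and 53.1 ± 0.86, and HRAS differed between arrays at 80.6, 79.8 and 74.0, with replicate 3 low.

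In the PI3K, AKT and mTOR list 12 of 17 were above the range. IRS4, an insulin receptor substrate that HEK293 cells are known for, lay at 99.1, 99.1 and 99.1, with a log2 signal of 10.54 ± 0.05. IRS1, the widely expressed family member, lay below the range at 70.2 ± 0.73, and IRS2 passed the limit on 2 arrays. GSK3B and PDPK1, kinases of the insulin pathway, lay at 94.9 ± 0.17 and 94.5 ± 0.10, and SGK1 at 57.1 ± 1.51. Wnt, Notch and Hedgehog genes had 13 of 22 above it, led by LRP6, the Wnt co-receptor, at 92.7 ± 0.48, NOTCH2 at 90.7 ± 1.13 and the Notch target HEY1 at 88.2 ± 1.14. GLI1, a Hedgehog target, and DLL4, a Notch ligand, lay at 49.4 ± 2.36 and 54.5 ± 1.18.

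The list for TGF-beta and BMP signals had 11 of 14 above the range. SMAD4, the shared SMAD, lay at 97.6, 97.6 and 97.6, and SMAD2 at 97.0 ± 0.06, while SMAD3, the other SMAD of the TGF-beta branch, lay at 56.7 ± 0.63. Of the BMP branch SMAD5 lay at 89.6 ± 0.27 and SMAD1 at 63.0 ± 0.52. SMAD1 read the same log2 signal, 4.09, on all 3 arrays, so its SD comes only from shifts of other probe sets. NF-kB and JAK-STAT genes had 12 of 20 above it. STAT3 lay at 95.7 ± 0.21, JAK1 at 95.6 ± 0.20 and the NF-kB kinase gene CHUK at 92.9 ± 0.34, and JAK3, a kinase of lymphoid cells, at 45.4 ± 0.87 with STAT5A at 47.1 ± 1.31. Cell cycle control had 27 of 28 above the range, with a median of 93.3. TOP2A, of chromosome separation, lay at 99.1, 99.04 and 99.1, the mitotic kinase PLK1 at 98.8, 98.8 and 98.7 and the replication clamp PCNA at 98.4, 98.4 and 98.3. E2F2, an activator of S phase genes, lay at 79.8 ± 0.84. The exception was CCND3, 1 of the D cyclins, at 68.1 ± 0.65. CCND2, another D cyclin, lay at 90.1, with its other probe set at 67.6, below the limit.

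Housekeeping genes had 98 of 107 named members above the range (91.6%), with a median of 94.0. All 9 named reference genes for normalisation were above it, from GAPDH at 86.2 ± 0.35 to CASC3, of the exon junction complex, at 98.1 ± 0.02, with PPIA, HPRT1 and IPO8 at 88.3, 93.7 and 93.7. B2M lay at 92.7, with its other probe set at 68.4, below the limit. Ribosomal protein genes had 18 of 20, with RPL10 at 99.1, 98.95 and 98.8, RPS19 and RPL11 at 98.7 and 98.3, RPL30 above the limit on 2 arrays and RPL22 at 65.1 ± 1.72. Translation factors had 7 of 9. EEF2, the elongation factor that moves the ribosome, lay at 99.7, 99.7 and 99.7, EEF1G at a log2 signal of 10.40 ± 0.14, EIF5B at 96.2, and EIF4E, the cap-binding protein, at 72.2 ± 0.73. EEF1D passed the limit on 2 arrays. Ribosomal protein genes have many pseudogenes, and signal shared with them cannot be told apart here. Glycolysis and the citrate cycle had 11 of 12, led by GPI, LDHB and CS at 98.3, 95.3 and 94.2, with IDH3A at 76.6. The respiratory chain had 7 of 8, led by UQCRC2, COX4I1 and COX5A at 98.9, 98.6 and 97.3, with COX5B at 81.6 and COX6C at 61.0 ± 0.81.

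Cytoskeleton genes had 7 of 9 above the range, with the actin binders TMSB10 and PFN1 at 98.7 ± 0.11 and 98.3 ± 0.09 and the nuclear lamin LMNB1 at 96.1 ± 0.05. Tropomyosin TPM1 passed the limit on 1 array. Chaperones had 6 of 6 and a median of 98.4. CALR, of the endoplasmic reticulum, lay at 99.6, 99.6 and 99.6, and HSPA9, of mitochondria, at 99.3, 99.4 and 99.4, with CANX, HSPA4 and STIP1 at 99.1, 97.4 and 96.2. RNA polymerase II and splicing genes had 20 of 21, with SNRPD3, a core spliceosome protein, at 99.5, 99.5 and 99.5. SRSF1 and HNRNPU, which bind pre-mRNA, lay at 99.4 and 99.2, and POLR2H, a polymerase subunit, at 82.7. SNRPE passed the limit on 2 arrays. HNRNPC, which binds nascent RNA, differed between arrays at 84.5, 88.3 and 89.3, with replicate 1 low. Chromatin genes had 17 of 17, with XRCC5, the Ku80 DNA repair protein, at 99.4, 99.4 and 99.4, PARP1 and RBBP4 at 97.9 and 97.5, HMGB1 at 82.3 and HDAC2, a histone deacetylase, at 79.9 ± 0.71. None of the 26 listed proteasome genes has a named probe set.

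**Figure D3:**
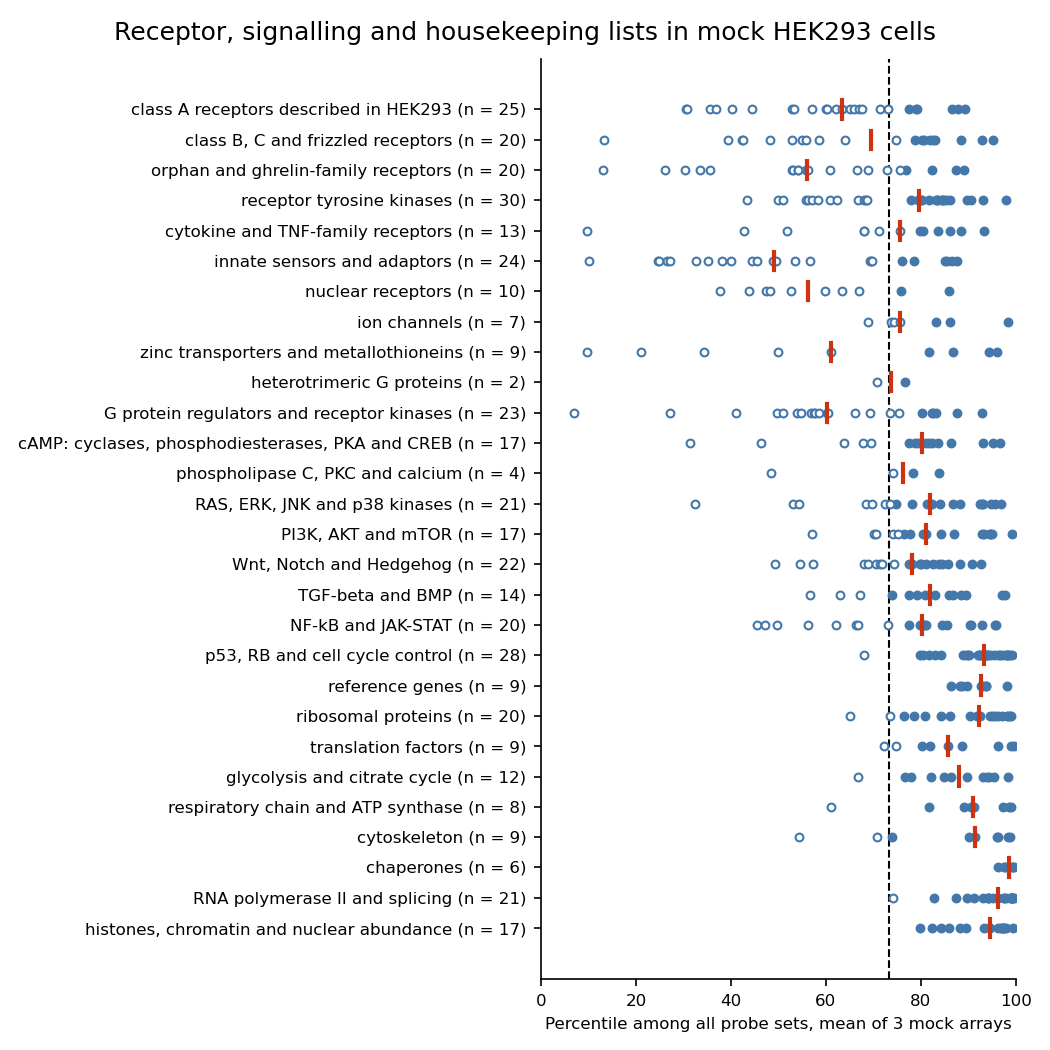
Percentile averaged over the 3 mock arrays (horizontal axis) for each named member of the receptor, signalling and housekeeping lists, with 1 signalling list not drawn, and drawn as for the lineage lists: filled points above the reference range on all 3 arrays, red bars for medians, a dashed line for the mean limit. Medians run from 49.1 for innate sensors to 98.4 for chaperones.

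Outside the lists, the 15 named genes with the highest mean percentile were led by the inducible HSP70 genes HSPA1B, at 99.97, 99.96 and 99.96, and HSPA1A, at 99.95, 99.9 and 99.95. These genes are near-identical copies, so their signals cannot be separated. The others were HNRNPA1P10, CSE1L, RPS15, COX6A1, LINC00987, PTBP1, SNAR-B1, OAZ1, RPS28, HACD3, KPNB1, RPL41 and YBX1, the last at 99.4. CSE1L and KPNB1 carry proteins between nucleus and cytoplasm, and PTBP1 and YBX1 bind RNA. COX6A1 and LINC00987 each have another probe set far lower, at 46.9 and 63.7, so their place depends on the probe set chosen.

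The spread between the mock arrays was small for most genes. The median SD of the log2 signal was 0.089 over genes above the range and 0.128 over other named genes, and the median SD of the percentile was 0.58 and 2.3. By category the median log2 SD was 0.118 for lineage, 0.119 for receptor, 0.087 for signalling and 0.079 for housekeeping genes. Among listed genes above the range, LPAR1 had the narrowest log2 range, 0.00, and TTN the widest, 0.86. Of the 12 named genes above the range with the widest log2 range, 5 were microRNA loci and 4 long noncoding RNAs. MIR1299 read log2 signals of 5.59, 7.48 and 7.85, SLIT2-IT1, a noncoding RNA, 5.06, 6.42 and 6.70, and LOC100190986 7.60, 8.64 and 8.98. The others were LOC729737, MIR612, MIR4454, MIR570, BMS1P1, LINC03009, PMS2P9 and SPDYE1, with log2 ranges from 1.02 to 1.19. Replicate 1 was the low array for all 12 but MIR4521, which read 7.24, 6.26 and 5.77.

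Promoter letters were set beside the levels for 10749 named genes matched by Entrez gene number to RefSeq promoters of GRCh38.p14, using the 250 bases before the start. CG dinucleotides are the sites of DNA methylation, and promoters rich in them are typical of widely expressed genes, while the TATA box, searched here as TATAAA on either strand, is typical of tightly regulated genes. For illustration the 100 bases before the start are printed 5′ to 3′ on the gene's strand, with CG in capitals, for 4 genes near the top of the arrays and for GPR39, NANOG and RGS1 below the range. These were chosen after their levels were seen. They lie at chrX:108736564-108736663 (minus strand), chr19:3985464-3985563 (minus), chr6:93419560-93419659 (minus), chr6:104940865-104940964 (plus), chr2:132416705-132416804 (plus), chr12:7789302-7789401 (plus) and chr1:192575673-192575772 (plus).
IRS4: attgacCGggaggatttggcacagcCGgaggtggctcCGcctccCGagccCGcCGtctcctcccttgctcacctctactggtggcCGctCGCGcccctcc
EEF2: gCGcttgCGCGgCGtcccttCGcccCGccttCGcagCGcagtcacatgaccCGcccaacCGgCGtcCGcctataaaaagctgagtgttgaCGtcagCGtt
EPHA7: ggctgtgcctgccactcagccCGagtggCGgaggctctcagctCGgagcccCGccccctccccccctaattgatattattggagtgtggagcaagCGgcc
LIN28B: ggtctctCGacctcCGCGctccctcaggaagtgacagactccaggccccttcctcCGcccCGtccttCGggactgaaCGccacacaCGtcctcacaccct
GPR39: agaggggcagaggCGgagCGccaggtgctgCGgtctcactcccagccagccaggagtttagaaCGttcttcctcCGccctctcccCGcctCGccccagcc
NANOG: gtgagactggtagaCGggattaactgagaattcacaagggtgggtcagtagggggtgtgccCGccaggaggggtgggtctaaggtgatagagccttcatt
RGS1: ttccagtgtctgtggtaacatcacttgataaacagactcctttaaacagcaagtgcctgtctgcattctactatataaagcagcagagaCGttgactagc
These windows hold 9, 14, 5, 8, 7, 2 and 1 CG in that order, EPHA7 with fewer than GPR39, and those of EEF2 and RGS1 hold TATAAA. Over 250 bases, the median CG count was 11 for 5681 genes below the range, 22 for 3053 genes from the limit to the 90th percentile and 22 for 2015 genes above it. For protein-coding genes alone these medians were 12, 22 and 22. TATAAA occurred in 11.3%, 4.7% and 4.3% of the same bands, against 11.1% of all 27305 promoters and 70.5% of the 88 reference genes with a promoter. GPR39 had 19 CG in its 250 bases and a level below the range. Genes are not independent replicates, so these shares are a description.

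**Figure D4:**
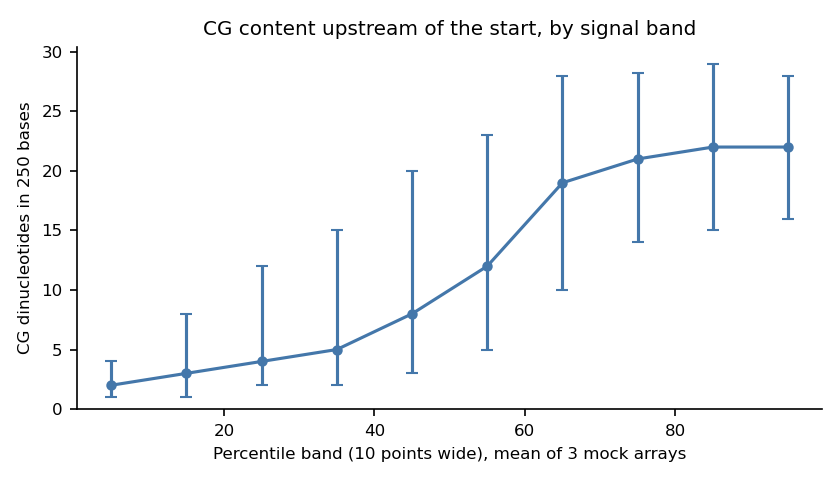
CG dinucleotides in the 250 bases before the start (vertical axis) in bands of 10 percentile points of the level in mock cells (horizontal axis); points are medians over genes and bars run from the lower to the upper quartile. The median rises from 2 in the lowest band to 22 in the highest and is nearly flat above the 70th percentile.

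The mock levels were last set against the other arrays with limma, fitted over 33376 probe sets and all 9 arrays with Benjamini-Hochberg adjustment at 0.05. Both comparisons share the mock arrays. In the cumate group 250 probe sets were higher than in mock (0.749%) and 141 lower (0.422%), 391 in all (1.17%). In the agonist group 2039 were higher (6.11%) and 2983 lower (8.94%). With each array centred on its 75th percentile the splits were 310 higher and 105 lower, and 2771 higher and 2159 lower. The cumate count rested on single arrays: it was 1324 without mock replicate 1, 137 and 193 without mock replicates 2 and 3, and 150, 115 and 108 without cumate replicates 1, 2 and 3. Without mock replicate 1 the split turned, with 419 probe sets higher and 905 lower. GPR39 itself was too dim to enter the fit, with log2 signals of 2.43, 2.55 and 2.43 in mock, 2.62, 2.55 and 2.55 in the cumate group and 2.45, 2.65 and 2.64 in the agonist group, all below the limit. Since the place of this probe set in the transcript is not known here, these values do not check the labelled overexpression.

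In the cumate group 1 of 107 tested housekeeping genes differed from mock (0.9%), beside 4 of 126 lineage (3.2%), 5 of 133 receptor (3.8%) and 10 of 190 signalling genes (5.3%). The share of all tested probe sets was 1.17%. In the agonist group 14 housekeeping genes were higher and 8 lower, as were 10 and 14 lineage, 12 and 25 receptor, and 28 and 29 signalling genes. Of the tested genes these were 20.6% of housekeeping, 19% of lineage, 27.8% of receptor and 30% of signalling genes. Of all tested probe sets, 6.11% were higher and 8.94% lower in that group. The cumate counts depended on which arrays were used. Without mock replicate 1 they were 8 lineage, 10 receptor and 15 signalling genes. With any 1 other array of that comparison left out, at most 2 lineage, 3 receptor and 6 signalling genes passed, and the housekeeping call, LMNB1, was lost. The agonist count of housekeeping genes was 17, 13 and 14 without mock replicates 1, 2 and 3. It was 12, 18 and 11 without agonist replicates 1, 2 and 3. EPHA7, at log2 signals of 9.26, 9.44 and 9.43 in mock, read 8.69, 8.71 and 8.72 in the cumate group and 7.96, 8.01 and 7.82 in the agonist group. Neither group overlapped mock, and its log2 change was -0.67 ± 0.08, adjusted p = 0.0089 and -1.44 ± 0.08, adjusted p = 2.34e-05 (SE and limma adjusted p, here and below). The cumate call was lost without cumate replicate 2 or 3. PTCH1, the Hedgehog receptor, fell by limma in both groups, with -0.78 ± 0.10, adjusted p = 0.00988 and -1.32 ± 0.10, adjusted p = 0.000107, the cumate call being lost without mock replicate 2 or cumate replicate 2 or 3. GPR3 rose in both, with 1.57 ± 0.17, adjusted p = 0.0055 and 2.10 ± 0.17, adjusted p = 0.000176. BMP2, a BMP ligand, rose as well, with 0.66 ± 0.06, adjusted p = 0.00322 and 1.70 ± 0.06, adjusted p = 2.57e-06.

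Some genes above the range in mock cells fell in the agonist group, while others, such as BMP2, rose. The examples given here are falls. F2R read 6.64, 6.65 and 6.64 in mock and 5.88, 5.46 and 5.36 in the agonist group, without overlap (limma, -1.08 ± 0.13, adjusted p = 0.0012). STING1 read 5.55, 5.32 and 5.23 and 4.35, 4.21 and 4.47 (limma, -1.02 ± 0.11, adjusted p = 0.000803), and EYA1 read 7.65, 7.52 and 7.60 and 7.01, 7.03 and 6.81 (limma, -0.64 ± 0.08, adjusted p = 0.0014). In the cumate group EYA1 did not pass the test, with 0.18 ± 0.08, adjusted p = 0.341 by limma; the difference between the groups was not tested. Over all named genes, 5424 were above the range on every array of the 3 groups, 88.3% of those above it in mock. Of 14884 named genes, 13 were above it on every mock array and on no other array. Another 27 were above it on no mock array and on every other.

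**Figure D5:**
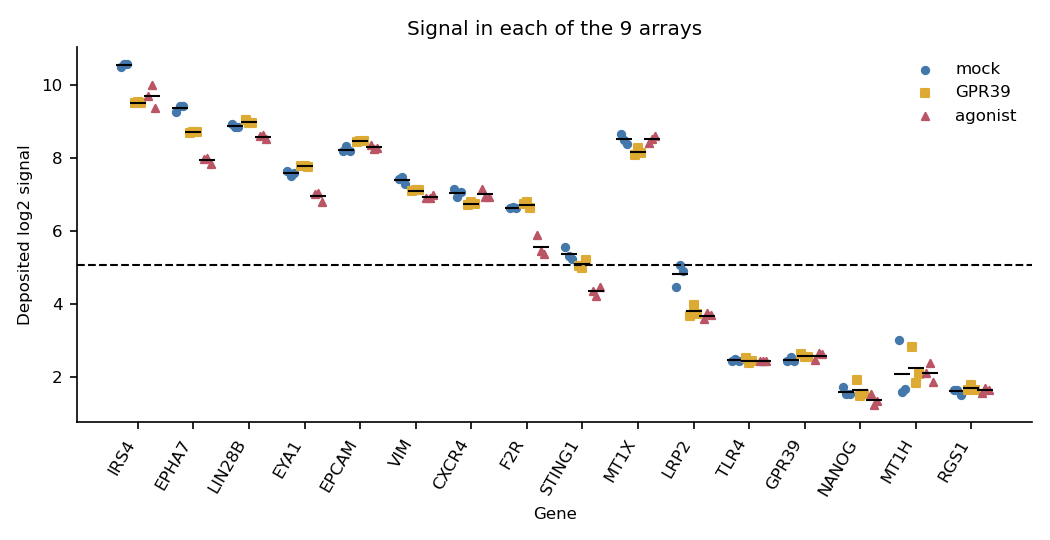
Deposited log2 signal (vertical axis) on each of the 9 arrays for 16 genes of the lists, with mock arrays as circles, the cumate group (GPR39) as squares and the TC-G-1008 group (agonist) as triangles; short bars are group means and the dashed line is the mean mock limit. EPHA7 is lower in both other groups, F2R and STING1 in the agonist group, and GPR39 stays below the limit on every array.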

How the data were processed

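The authors deposited log2 signals per probe set for 9 Affymetrix arrays; MAS5 is named in the submitters' processing notes, and no source used here gives the normalization between arrays or the log step. Precision is limited by the small number of arrays. Probe sets were named through GEO's platform annotation: 16098 have 1 gene symbol, for 14884 genes. The other 37519, with no symbol or with several, were left unnamed here. A gene with several probe sets (779 genes) was represented by the one with the highest mean over all arrays; for 207 genes the probe sets lay on different sides of the limit. Values were ranked within each array without further normalization. Up to 5.85% of values were exactly equal in a pair of mock arrays, and 1318 rows repeated another row.

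The members and lists were chosen with earlier results of these data known. Named genes were GPR39, the 3 highest and 2 lowest members of each list, the 15 brightest and 12 most variable others, reference genes above the 99th percentile of their set, and, by rule, up to 4 genes per list past the test, of which the text gives only some. Other listed genes in the text were chosen after their values were seen, for their role. Changes were tested with limma 3.58.1 in R 4.3.3 (lmFit, eBayes) on probe sets above the 40th percentile on at least 3 of 9 arrays, after testing on simulated data. Percentiles and figures used Python 3.11.15, pandas 2.3.3 and matplotlib 3.10.9. The count of 1 signalling list is not reported here.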

Additional observations from a re-analysis of the deposited data

How the results depend on the processing

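The number of genes above the reference range was 4498 to 7715 with the limit at the 99th or 90th percentile of the reference genes, 6031 with a gene's probe sets averaged, 6195 to 6396 without 1 mock replicate and 6328 without keratin-associated genes, the last chosen after seeing the data. It was 11249 with the limit at the 40th percentile of the array. Lineage genes above the range were 39, and 60 with the 90th percentile and 115 with the 40th percentile limit. Receptor genes were 57, and 37 with the 99th percentile of the reference genes and 128 with the 40th percentile limit. Counts of signalling and housekeeping genes stayed within 1.5 times under all of these. Ranking among named probe sets only moved 603 of 611 percentiles of listed genes, with a median shift of -13.9. Leaving out 1 mock array moved none beyond the SD, but with so few arrays the mean cannot shift by more than the SD. That comparison therefore does not show how stable the percentiles are. A limit from olfactory receptor genes alone was not run, since 1 is named. The cumate group's count of 391 was 108 to 1324 without 1 array. Same-numbered mock and cumate arrays did not deviate together (correlations -0.001, -0.001 and 0.004), nor did all mock and agonist ones (0.065, 0.033 and -0.101), so the number was not taken as a pairing. With the replicate number as a block the counts were 150 and 3955. The agonist count was 3510 to 4969 without 1 array. No change of a listed gene that passed the test reversed its direction under these settings. The cause of each shift was not tested. Dim probe sets limit the levels below the range, where a signal cannot be told apart from background.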

Other observations

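By gene type, 5833 of 11916 protein-coding genes (49.0%) were above the reference range in mock cells, with a median percentile of 74.0. Long noncoding RNAs had 124 of 1398 (8.9%), microRNA loci 81 of 1072 (7.6%) and transcribed pseudogenes 87 of 447 (19.5%). Their median log2 SD between mock arrays was 0.103 for protein-coding genes, 0.124 for long noncoding RNAs, 0.171 for microRNA loci and 0.158 for transcribed pseudogenes. An array of this kind labels long transcripts, so signal at a microRNA locus need not be the mature microRNA. The 13 genes above the range on every mock array and on no other array included the homeobox gene HOXA2, the netrin receptor gene UNC5C and the cadherin genes FAT3 and PCDH18. The 27 above it on every other array and on no mock array included the chemokine genes CXCL8, CCL2 and CCL20, the stress factor ATF3 and the matrix genes THBS1 and MMP13. Some crossings in both sets were small. NBEA lay at a mean percentile of 74.5 in mock and 71.9 in the cumate group (limma adjusted p = 0.168). RPL22L1 lay at 72.05 in mock and 74.45 in the cumate group (limma adjusted p = 0.364).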
